A study of Mus musculus with 16 samples.

Results

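The genes described here encode the proteins that the nucleus contributes to the mitochondrial respiratory chain and ATP synthase, together with cytochrome c. They were taken by name as the protein-coding genes of the GENCODE M21 mouse annotation whose symbol is Nduf followed by a, b, c, s or v and a digit, Sdha to Sdhd, Uqcr, Cyc1, Cycs, Cox4 to Cox8 or Atp5. The rule gave 87 genes of the 35968 to which transcripts in the files could be assigned, with 86 symbols, because Atp5o is annotated as 2 gene models. Of the 87 genes, 35 belong to complex I, 4 to complex II, 9 to complex III, 20 to complex IV and 18 to complex V, and 1 is cytochrome c. Ndufa4, named for complex I but found in cytochrome c oxidase, was counted with complex IV, and so was its paralogue Ndufa4l2. A further 12 matching symbols were not protein-coding and were left out. Ndufab1, the acyl carrier protein bound to complex I, lies outside the name rule.

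The samples were mouse embryonic stem cells (ESCs), either Dgcr8 knockout cells (KO) or wild type (WT), grown in normal ESC culture or under an mTOR inhibitor and taken on day 2, a state called paused. The groups were KO paused, KO normal, WT paused and WT normal, with 4 poly(A) RNA libraries in each. Dgcr8 is the RNA-binding partner of Drosha in the nuclear complex that cuts microRNA precursors, and mTOR inhibition holds mouse ESCs in a dormant state that resembles the diapause of embryos. The labels give neither the strain nor the inhibitor and its dose, and they do not say whether the 4 libraries of a group came from separate cultures, so p-values measure the spread between these libraries, which may be technical.

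The libraries held 88377380 to 116646028 estimated counts. Levels are given as CPM, counts per library total scaled by the trimmed mean of M-values, or, where genes are compared with each other, as TPM, the kallisto level per transcript length. Dgcr8 itself had 17067 to 25885 estimated counts in the 8 KO libraries and 3910 to 5726 in the 8 WT libraries. Dgcr8 counts were thus not lower in the libraries labelled KO. The labels are silent on the deleted stretch and a count over the whole gene cannot show one, so the genotype stays unchecked here and KO and WT are the labels' names. The libraries labelled KO and WT also differed in the Y-linked gene Ddx3y, with 13 to 44 counts in KO and 8326 to 10946 in WT, so the lines differ in more than Dgcr8. In WT normal culture a few members differed between replicates 1 and 2 and replicates 3 and 4. Of 80 members with enough counts, 3 (Ndufs8, Ndufb9 and Cox7a1) differed between these pairs by more than 0.3 on the log2 scale. The count was 1 in KO normal and 0 in both paused groups, and the share over all genes is not given. ESC markers summed to 4559 to 6551 CPM, and markers of fibroblasts to 7.17 to 12.9 CPM. Endoderm markers summed to 13.3 to 16.1 CPM in KO paused and 6.57 to 9.30 CPM in KO normal, and to 21.9 to 31.3 CPM in WT paused and 21.7 to 34.7 CPM in WT normal libraries. In bulk RNA, fewer cells of a type and less RNA per cell cannot be told apart, and all values are shares of a library, not amounts per cell.

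Complex I takes electrons from NADH and complex II from succinate, and both pass them to ubiquinone. Complex III hands them on to cytochrome c, a small soluble protein that also triggers apoptosis when it leaves the mitochondrion, and complex IV, cytochrome c oxidase, reduces oxygen with them. Complex V, the ATP synthase, uses the proton gradient built by complexes I, III and IV. Complexes I, III, IV and V are mosaics of nuclear and mitochondrial gene products, while complex II and cytochrome c are encoded in the nucleus alone. Several subunits of complex IV have tissue isoforms that replace the ubiquitous form in heart, muscle, testis or under low oxygen.

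The first question was what mTOR inhibition did to these transcripts. Most of them fell, in both genotypes. In paused against normal KO cells, 67 of the 86 members tested were lower and 7 higher, where 32.8% and 34.4% of all 18944 genes tested were lower and higher and 67.2% passed in either direction (edgeR quasi-likelihood test, Benjamini-Hochberg adjusted p under 0.05 over all genes). In paused against normal WT cells, 70 were lower and 5 higher, where 27.5% and 33.3% of all genes were lower and higher and 60.7% passed in either direction. The member not tested was Cox8b, the muscle form of subunit 8, with 0 to 3 counts per library. The median log2 fold change of the members was −0.41 in KO and −0.40 in WT cells, while that of all genes was 0.02 in KO and 0.04 in WT cells. Protein-coding genes within the level range of the ubiquitous members, 8401 in number, had medians of −0.08 in KO and 0.00 in WT cells.

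The fall was shared between genotypes gene by gene. Lower in both were 64 members, where 20.2% of all genes were lower in both, and higher in both were Atp5s, Cox6b2 and Cox7a2l, where 21.9% of all genes were higher in both. Only Ndufa6 passed the test in opposite directions. The 4 libraries of each group did not overlap for 66 members that were lower and 7 that were higher in KO paused cells, where 31.3% and 32.7% of all genes separated in that way. In WT cells the corresponding counts were 70 and 5 members, against 24.2% and 29.9% of all genes. Summed over the 87 members, the level was 8931 ± 242 CPM in KO paused and 11462 ± 176 CPM in KO normal libraries, and 9058 ± 270 CPM in WT paused and 11548 ± 159 CPM in WT normal libraries (SD, n = 4 each).

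The counts depended on the scaling. In TPM as deposited, with no further scaling between libraries, the median log2 ratio of all genes was 0.21 higher than in scaled CPM for KO pausing and 0.25 higher for WT pausing. On that scale limma called 49 members lower and 18 higher in KO paused cells and 42 lower and 17 higher in WT paused cells. Relative to the median of all genes, the members' median stood at −0.42 in KO and −0.44 in WT cells in TPM, and at −0.44 in both in CPM. In TPM, 7 of the members called in KO cells and 13 of those called in WT cells changed sign, among them Cox4i1 and Cox6b1 in both genotypes, Sdha and Ndufs7 in KO and Atp5b and Ndufv1 in WT cells.

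**Figure D1:**
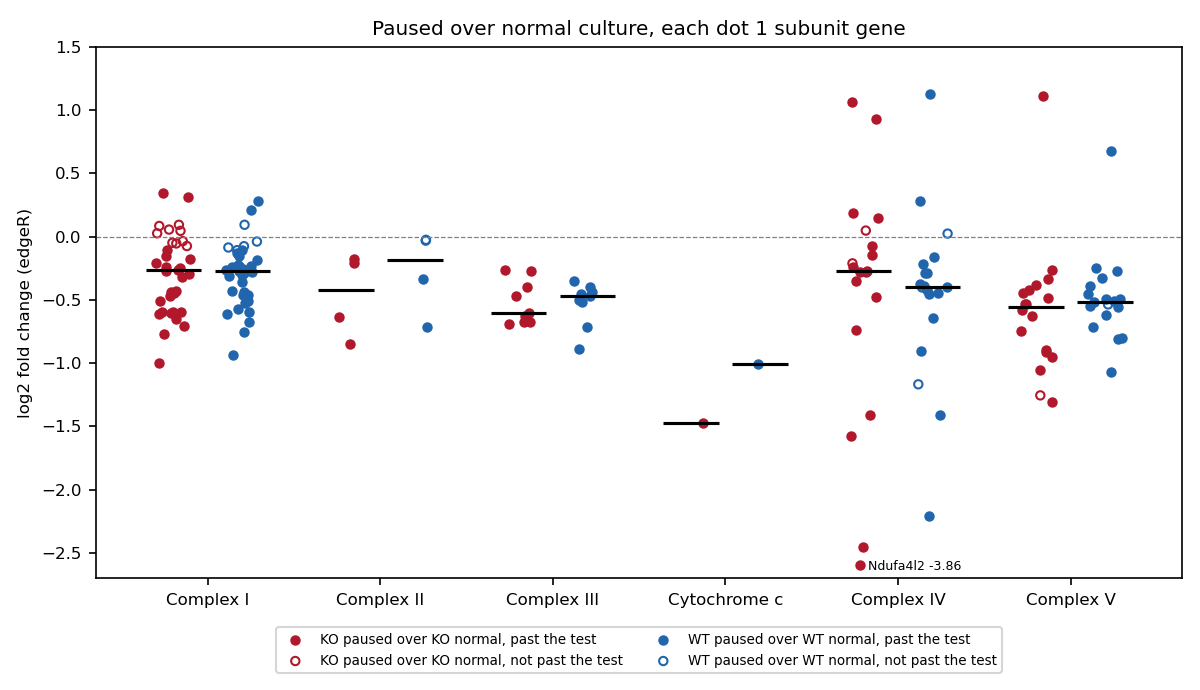
Log2 fold changes of paused over normal culture for the 86 members tested, by complex, with KO left of WT in each pair; each dot is a gene, filled dots passed the test and black lines are medians. Complex III, cytochrome c and complex V lie below zero apart from Atp5s, while complexes I and IV reach from above zero to well below it; Ndufa4l2 in KO, at −3.86, is drawn at the lower edge.

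Of the 35 members of complex I, 24 were lower and 2 higher in KO paused cells, where the median change was −0.26 (log2), and 28 were lower and 2 higher in WT paused cells, with a median of −0.27. Of the 7 core subunits, which carry the flavin and the iron-sulphur clusters, 6 were lower in KO and 5 in WT cells, and none was higher. Of the 28 accessory subunits, 18 were lower and 2 higher in KO cells, and 23 lower and 2 higher in WT cells. Ndufab1 fell as well, by 0.30 in KO and by 0.43 in WT cells on the log2 scale. The medians of complexes depended on the scaling. Of 30 medians, for the 5 complexes and cytochrome c in each comparison, 23 moved by more than the spread between replicates in TPM and 9 with protein-coding genes alone. In TPM the median of complex II in WT pausing turned to above zero.

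The lowest member of complex I in KO cells was Ndufs8, a core subunit that binds iron-sulphur clusters. Ndufs8 had 26.1, 27.5, 29.2 and 26.3 CPM in KO paused and 53.7, 53.7, 55.0 and 56.2 CPM in KO normal libraries, with a log2 fold change of −1.001 ± 0.0996 (SE, adjusted p = 1.4e-07). In WT cells it had 29.3, 26.8, 29.2 and 28.3 CPM in paused libraries and 37.5, 37.6, 52.9 and 53.9 CPM in normal libraries. Paused libraries lay below all normal libraries in both genotypes, but the WT normal libraries formed 2 pairs. The WT change was −0.68 ± 0.10 over all replicates, −0.42 ± 0.05 with replicates 1 and 2 and −0.90 ± 0.05 with replicates 3 and 4.

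Ndufb9, an accessory subunit of the membrane arm, showed the same pairs and was the highest member of complex I in WT cells. It had 90.2, 83.7, 88.1 and 83.9 CPM in WT paused and 60.5, 61.0, 79.8 and 82.8 CPM in WT normal libraries. Its rise of 0.28 ± 0.08 (adjusted p = 0.0058) was 0.52 ± 0.04 with replicates 1 and 2 and 0.07 ± 0.04 with replicates 3 and 4, and with replicates 3 and 4 it no longer passed the test (adjusted p = 0.14). In KO cells it had 91.1, 87.6, 94.0 and 87.2 CPM in paused and 85.1, 83.8, 86.3 and 84.1 CPM in normal libraries, and the change of 0.08 did not pass the test (adjusted p = 0.37).

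The lowest member of complex I in WT cells was Ndufb10, an accessory subunit of the membrane arm. It had 49.9, 50.9, 53.5 and 49.8 CPM in KO paused and 79.7, 78.0, 76.7 and 77.2 CPM in KO normal libraries. In WT cells it had 51.8, 45.0, 47.0 and 44.2 CPM in paused and 88.7, 92.8, 87.4 and 91.2 CPM in normal libraries. It fell by 0.61 in KO and by 0.94 in WT cells on the log2 scale, and the difference of 0.33 ± 0.06 between these responses passed the test (adjusted p = 0.00036).

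Ndufa6, an accessory subunit of the LYR motif family that sits at the base of the peripheral arm, was the member with calls in both directions. It had 49.5, 51.7, 54.8 and 53.7 CPM in KO paused and 43.0, 40.4, 42.3 and 42.8 CPM in KO normal libraries, and it rose by 0.32 ± 0.04 (adjusted p = 1.1e-06). In WT cells it had 49.4, 46.3, 48.7 and 45.6 CPM in paused and 49.8, 51.8, 50.6 and 52.4 CPM in normal libraries. The KO normal libraries lay below those of the other 3 groups, and KO paused overlapped with WT normal libraries. The WT change of −0.11 ± 0.04 (adjusted p = 0.028) turned to 0.15 in TPM, and at −0.09 it did not pass the test without WT paused replicate 2, WT paused replicate 4 or WT normal replicate 4.

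Other members of complex I against the trend were few. Ndufb11 rose by 0.34 ± 0.05 in KO cells (64.4, 67.0, 69.1 and 65.2 CPM in KO paused against 53.1, 51.3, 54.2 and 51.1 CPM in KO normal libraries, adjusted p = 5.3e-06). Its change in WT cells was 0.09 (adjusted p = 0.1). Ndufa7 rose by 0.21 ± 0.04 in WT cells (146, 135, 141 and 126 CPM in WT paused against 113, 117, 120 and 124 CPM in WT normal libraries, adjusted p = 0.00051), and had a change of 0.06 in KO cells (adjusted p = 0.28). With replicates 3 and 4 alone the WT change of Ndufa7 was 0.12 and did not pass the test.

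Complex II, succinate dehydrogenase, fell in all 4 subunits in KO cells and in 2 of 4 in WT cells. Sdhd, a membrane anchor, fell most. It had 59.6, 61.8, 60.5 and 59.7 CPM in KO paused and 109, 108, 111 and 107 CPM in KO normal libraries, a log2 fold change of −0.85 ± 0.04 (adjusted p = 1.7e-12). WT libraries held 79.8, 71.3, 72.5 and 69.7 CPM in paused and 119, 119, 117 and 126 CPM in normal libraries, a log2 fold change of −0.72 ± 0.04 (adjusted p = 1.9e-11). The groups did not overlap in either genotype. Sdhc, the other anchor, fell by 0.64 ± 0.04 in KO and by 0.33 ± 0.04 in WT cells.

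The catalytic subunits of complex II moved less. Sdha, the flavoprotein, had 277, 261, 278 and 270 CPM in KO paused and 302, 305, 313 and 308 CPM in KO normal libraries. Its change was −0.18 ± 0.03 in KO cells (adjusted p = 6.4e-05), which in TPM was 0.03, and −0.03 in WT cells (adjusted p = 0.41). Sdhb, the iron-sulphur subunit, fell by 0.21 ± 0.04 in KO cells (adjusted p = 0.0002), and its change in WT cells was −0.02 (adjusted p = 0.63). The responses of Sdha, Sdhb and Sdhc were lower in KO than in WT cells by the interaction test, by 0.15, 0.18 and 0.31 on the log2 scale. The call of Sdha was lost without WT normal replicate 2 (−0.10) or 3 (−0.11), and that of Sdhb without WT paused replicate 1 (−0.15) or WT normal replicate 2 (−0.12).

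Complex III fell in all 9 members in both genotypes, with medians of −0.60 in KO and −0.47 in WT cells. In KO cells the changes ran from −0.69 ± 0.04 for Cyc1, the cytochrome c1 haem protein, to −0.26 ± 0.03 for Uqcrc2, a core protein. Cyc1 had 182, 177, 183 and 178 CPM in KO paused and 300, 285, 286 and 291 CPM in KO normal libraries. In WT cells the changes ran from −0.89 ± 0.05 for Uqcrq, a small subunit that binds cytochrome b, to −0.35 ± 0.03 for Uqcrc2. Uqcrq had 69.5, 61.6, 62.5 and 58.1 CPM in WT paused and 117, 119, 114 and 116 CPM in WT normal libraries. Paused and normal libraries did not overlap for any of the 9 genes in either genotype.

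In KO cells cytochrome c showed the deepest fall among the ubiquitously expressed members. Cycs (chromosome 6, 50562563 to 50566538, minus strand, GRCm38) had 31.6, 33.0, 32.4 and 32.8 CPM in KO paused and 90.6, 86.8, 91.7 and 90.8 CPM in KO normal libraries. Its level was 39.4, 38.4, 36.8 and 36.3 CPM in WT paused and 69.4, 76.7, 78.5 and 78.6 CPM in WT normal libraries. KO normal libraries were the highest and KO paused libraries the lowest, and no pair of the 4 groups overlapped. The log2 fold change of pausing was −1.47 ± 0.04 in KO (adjusted p = 8.1e-15) and −1.01 ± 0.04 in WT cells (adjusted p = 8e-13), and the fall was deeper in KO cells by 0.46 ± 0.06 (adjusted p = 6e-06). Cycs shares 31-base stretches with the predicted gene Gm10053, so counts may be divided between them. Gm10053 fell in the same way, by 1.85 in KO and by 1.23 in WT cells. With its counts and those of pseudogenes added, Cycs fell by 1.63 ± 0.03 in KO and by 1.11 ± 0.03 in WT cells.

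Of the 19 members of complex IV tested, 13 were lower and 4 higher in KO paused cells, and 14 were lower and 2 higher in WT paused cells. Without the tissue isoforms, 9 of 12 were lower and 2 higher in KO cells, with a median of −0.26 and a range of −0.73 to 0.19, and 10 of 12 were lower and 1 higher in WT cells, with a median of −0.33 and a range of −0.64 to 0.28. Cox6c, a small subunit of the membrane part, fell most among these 12, by 0.73 ± 0.04 in KO (86.9, 79.5, 86.0 and 81.6 CPM in KO paused against 142, 133, 136 and 144 CPM in KO normal libraries) and by 0.64 ± 0.04 in WT cells. Cox4i1, the regulatory subunit that binds ATP, had 387, 386, 400 and 378 CPM in KO paused and 424, 399, 403 and 408 CPM in KO normal libraries. It fell by 0.08 ± 0.03 in KO and by 0.16 ± 0.03 in WT cells in CPM, and its sign turned in TPM to 0.11 in KO and 0.08 in WT cells. The KO call, at an adjusted p of 0.041, was lost without any 1 of 8 libraries (KO paused replicates 1, 2 and 4, KO normal replicates 1, 3 and 4 and WT normal replicates 2 and 3), with values of −0.08 to −0.06. Cox6a1 rose in KO cells by 0.15 ± 0.04 (adjusted p = 0.004), and its change in WT cells was 0.02 (adjusted p = 0.64). Cox5b, which binds zinc on the matrix side, had a change of 0.05 in KO cells (adjusted p = 0.3) and fell by 0.21 ± 0.04 in WT cells (adjusted p = 0.00013), where its sign turned to 0.13 in TPM.

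Of the isoforms, 2 rose in both genotypes, Cox6b2 and Cox7a2l. Cox6b2 (chromosome 7, 4751792 to 4753094) is the testis form of subunit 6b. It had 21.4, 24.3, 24.4 and 27.3 CPM in KO paused and 14.7, 13.5, 11.9 and 10.9 CPM in KO normal libraries, a log2 fold change of 0.93 ± 0.09 (adjusted p = 3.9e-08). WT libraries held 29.99, 29.5, 26.0 and 26.5 CPM in paused and 14.1, 13.0, 11.9 and 12.1 CPM in normal libraries, a log2 fold change of 1.13 ± 0.09 (adjusted p = 3.9e-09). The ubiquitous form Cox6b1 fell by 0.24 ± 0.03 in KO and by 0.28 ± 0.03 in WT cells in CPM, and its sign turned in TPM. As a share of Cox6b1 and Cox6b2 in TPM, Cox6b2 made up 20.5% ± 1.8 in KO paused and 10.6% ± 1.1 in KO normal libraries, and 22.9% ± 1.1 in WT paused and 10.4% ± 0.6 in WT normal libraries (SD, n = 4 each). These shares did not overlap between paused and normal libraries. The p of 0.0286 was the smallest that 4 against 4 libraries allow (exact permutation test, two-sided, adjusted p = 0.0419 over 44 share tests). All share tests at that smallest p have this same adjusted p, which says no more than that the libraries did not overlap.

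Cox7a2l, also called SCAF1, is a member of the subunit 7a family that joins complexes III and IV in supercomplexes. It had 92.2, 93.7, 92.5 and 89.5 CPM in KO paused and 84.1, 77.9, 79.1 and 81.4 CPM in KO normal libraries. The WT libraries held 96.8, 95.3, 103 and 102 CPM in paused and 79.3, 78.8, 82.5 and 86.7 CPM in normal libraries. It rose by 0.19 ± 0.04 in KO (adjusted p = 0.00024) and by 0.28 ± 0.04 in WT cells (adjusted p = 3.6e-06), while Cox7a2, the ubiquitous family member, fell by 0.48 ± 0.04 in KO and by 0.46 ± 0.04 in WT cells. Of the TPM of Cox7a1, Cox7a2 and Cox7a2l together, Cox7a2l held 39.3% ± 1.0 in KO paused and 27.8% ± 0.2 in KO normal libraries, and 37.4% ± 1.6 in WT paused and 26.5% ± 1.1 in WT normal libraries (SD, n = 4 each). Both shifts had the smallest exact permutation p of 0.0286 (adjusted p = 0.0419). These shares count Cox7a2l without pseudogenes, and their size depends on that choice. With pseudogenes added, its mean TPM was 315 in KO paused and 225 in KO normal libraries, against 161 and 124 alone. In WT paused and WT normal libraries it was 320 and 213, against 168 and 116 alone.

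The remaining tissue isoforms were rare and, with the exception of Cox6a2 in KO cells, none of them rose. Ndufa4l2, a paralogue of Ndufa4 known as a target of hypoxia-inducible factor, had 0.183, 0.226, 0.0569 and 0.152 CPM in KO paused and 3.53, 2.59, 0.838 and 2.18 CPM in KO normal libraries. Its log2 fold change was −3.86 ± 0.43 in KO (adjusted p = 7.8e-07) and −2.21 ± 0.41 in WT cells (adjusted p = 0.00022), the deepest falls of all members in both genotypes. Cox4i2, the low-oxygen form of subunit 4, had 0.334, 0.315, 0.427 and 0.274 CPM in KO paused and 2.35, 2.07, 1.48 and 1.52 CPM in KO normal libraries, and it fell by 2.45 ± 0.21 in KO and by 1.41 ± 0.22 in WT cells. As a share of Cox4i1 and Cox4i2 in TPM, Cox4i2 made up 0.0887% in KO paused and 0.463% in KO normal, and 0.0826% in WT paused and 0.194% in WT normal libraries. Cox7a1, the heart and muscle form, fell by 1.58 ± 0.10 in KO cells, with 1.68, 1.72, 1.69 and 1.60 CPM in KO paused and 5.52, 5.13, 4.72 and 4.62 CPM in KO normal libraries. In WT cells Cox7a1 fell by 0.42 ± 0.10, but with replicates 1 and 2 alone the change was −0.30 and did not pass the test. Cox8c, the testis form of subunit 8, fell by 1.41 ± 0.23 in KO and by 0.91 ± 0.18 in WT cells from levels under 1 CPM. Summed markers of heart and muscle stood at 6.74 to 8.02 CPM in KO paused and 9.02 to 10.99 CPM in KO normal libraries, and at 7.63 to 8.40 CPM in WT paused and 9.31 to 11.02 CPM in WT normal libraries; their part in these changes was not tested.

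**Figure D2:**
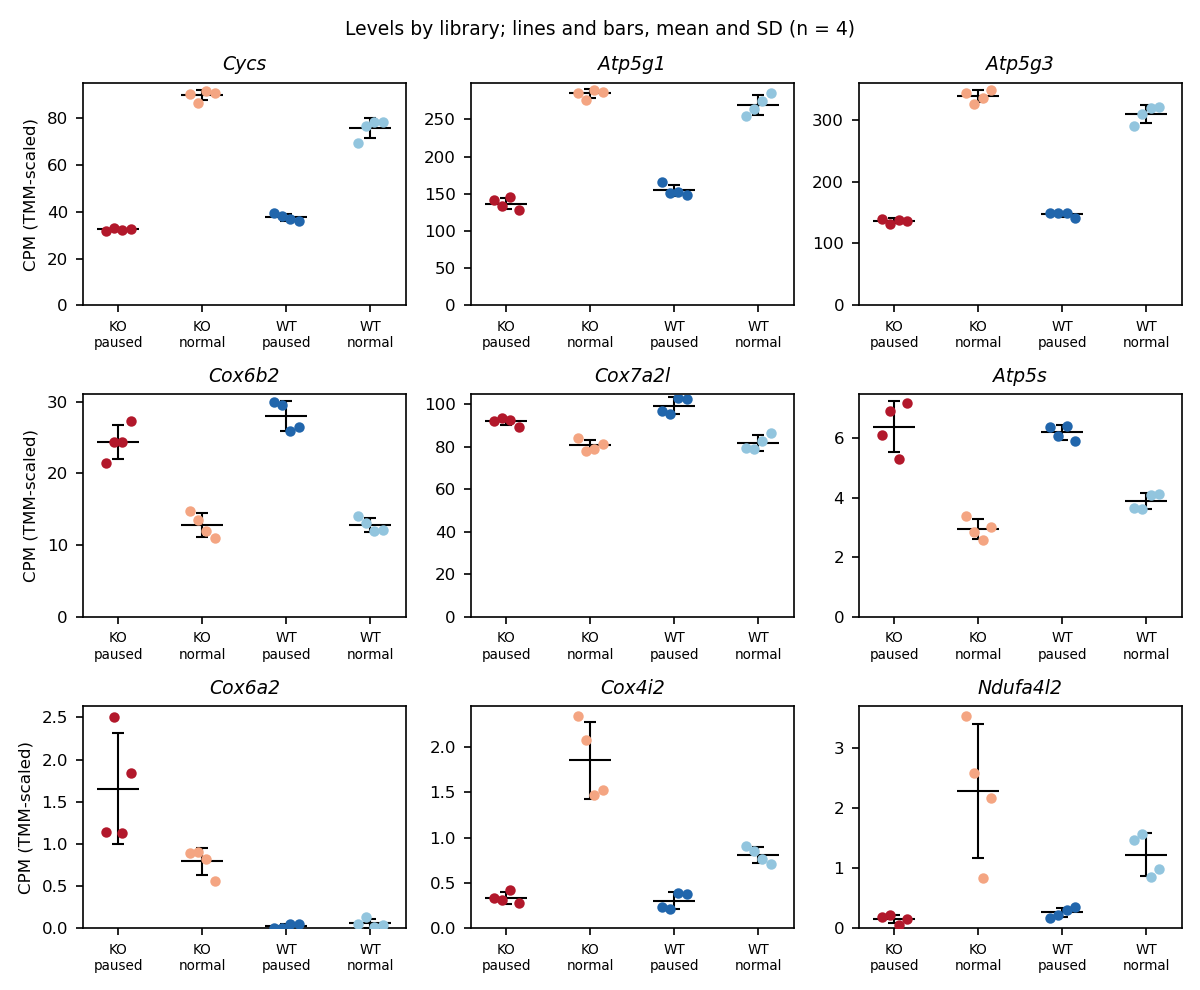
Levels of 9 members in each library, as scaled CPM on linear axes that start at 0, in the order KO paused, KO normal, WT paused and WT normal; dots are libraries, lines and bars are means and SD (n = 4). Cycs, Atp5g1, Atp5g3, Cox4i2 and Ndufa4l2 lie lower in paused libraries of both genotypes, Cox6b2, Cox7a2l and Atp5s lie higher, and Cox6a2 is near 0 in WT libraries.

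Complex V fell in 16 of 18 members and rose in 1 in each genotype, with medians of −0.56 in KO and −0.51 in WT cells. The exceptions were Atp5s and the second gene model of Atp5o, which had 0 to 14 counts per library. The catalytic subunit Atp5b had the highest TPM of all members, 2005 ± 78 in KO paused and 2043 ± 69 in KO normal, and 2023 ± 64 in WT paused and 1935 ± 85 in WT normal libraries (SD, n = 4 each). In CPM it fell by 0.26 ± 0.03 in KO and by 0.24 ± 0.03 in WT cells, and in TPM the WT sign turned. Atp5k and Atp5e, small subunits of the membrane part and the central stalk, fell by 0.90 ± 0.04 and 0.91 ± 0.04 in KO cells. In WT cells they fell by 0.80 ± 0.04 and 0.52 ± 0.04.

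The deepest falls in complex V among members that passed the test were those of Atp5g3 and Atp5g1, which encode the c ring, the proton-carrying rotor. The protein of the ring is encoded by 3 genes, Atp5g1, Atp5g2 and Atp5g3, which give the same mature protein and differ in the targeting sequence that is removed on import. Atp5g3 (chromosome 2, 73908447 to 73911326) had 140, 131, 138 and 136 CPM in KO paused and 343, 325, 335 and 348 CPM in KO normal libraries, a log2 fold change of −1.31 ± 0.04 (adjusted p = 9.6e-15). WT libraries held 149, 150, 149 and 141 CPM in paused and 289, 308, 319 and 320 CPM in normal libraries, a log2 fold change of −1.07 ± 0.04 (adjusted p = 1.6e-13). Atp5g1 (chromosome 11, 96068852 to 96075670) fell by 1.06 ± 0.05 in KO and by 0.81 ± 0.05 in WT cells, with 141, 133, 145 and 128 CPM in KO paused against 286, 277, 290 and 288 CPM in KO normal libraries. Both genes ran well below the median of complex V in both genotypes.

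The third gene of the c ring, Atp5g2, could not be read in the same way. Counted alone it had 12.3, 10.6, 12.4 and 11.4 CPM in KO paused and 25.2, 20.4, 22.1 and 22.7 CPM in KO normal libraries, a log2 fold change of −0.95 ± 0.07, and in WT cells the change was −0.71 ± 0.07. The pseudogene Gm10175, which shares 31-base stretches with it, carried about 10.3 times its counts, with 159, 158, 178 and 163 CPM in KO paused and 193, 184, 185 and 191 CPM in KO normal libraries. With the pseudogene counts added, the change was −0.26 ± 0.05 in KO (adjusted p = 6.6e-05) and −0.15 ± 0.05 in WT cells (adjusted p = 0.0089). The share of Atp5g2 in the TPM of the 3 genes was then 41.3% ± 1.0 in KO paused and 26.3% ± 0.4 in KO normal libraries, and 43.7% ± 1.4 in WT paused and 30.5% ± 2.0 in WT normal libraries (SD, n = 4 each). Counted alone it was 3.90%, 3.19%, 4.599% and 3.85% in the same groups. The share of Atp5g1, which in TPM of the genes alone was 2.34 percentage points higher in KO paused than in KO normal and 3.04 points higher in WT paused than in WT normal libraries, turned with this choice. With pseudogenes added the differences were −5.86 points in KO and −4.58 points in WT cells. How many of these reads came from the pseudogene was not tested.

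**Figure D3:**
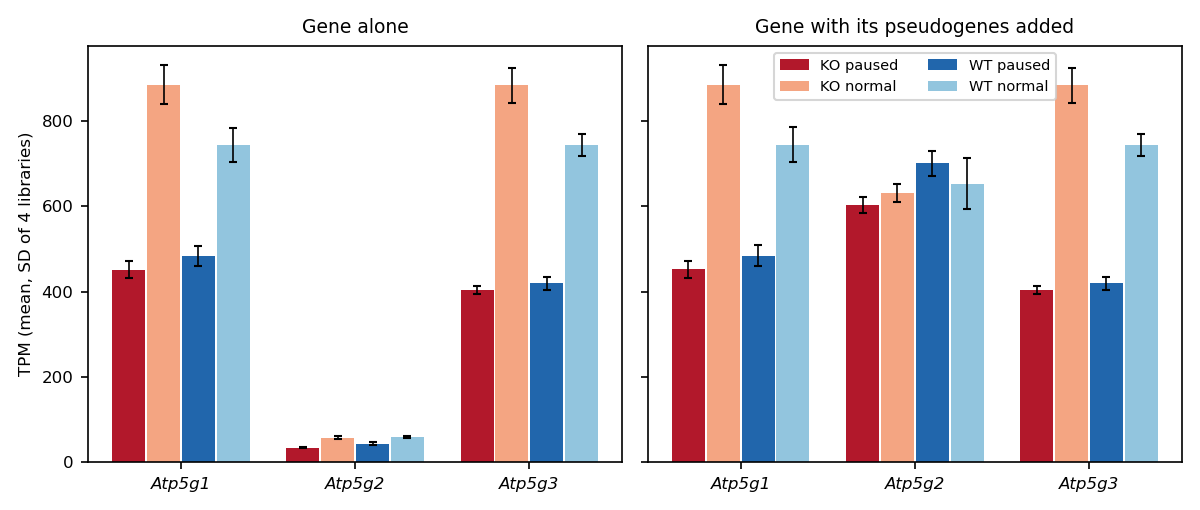
Mean TPM of the 3 genes of the ATP synthase c subunit, alone (left) and with the pseudogenes that share their sequence added (right), in KO paused, KO normal, WT paused and WT normal libraries; bars start at 0 and error bars are SD (n = 4). Atp5g1 and Atp5g3 are lower in paused libraries in both panels, while Atp5g2 stands at 34.7 to 59.5 TPM alone and 602 to 701 TPM with its pseudogene.

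Atp5s, known as coupling factor B and matched by its symbol, was the member of complex V that rose. It had 6.11, 6.90, 5.28 and 7.17 CPM in KO paused and 3.36, 2.84, 2.57 and 3.01 CPM in KO normal libraries, a log2 fold change of 1.11 ± 0.10 (adjusted p = 1.6e-08). The WT libraries held 6.37, 6.05, 6.40 and 5.90 CPM in paused and 3.66, 3.63, 4.08 and 4.13 CPM in normal libraries, a log2 fold change of 0.67 ± 0.10 (adjusted p = 1e-05). KO paused and WT paused libraries overlapped, while all KO normal libraries lay below the WT normal libraries.

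Atp5g2 was not the only member with related sequence elsewhere in the genome. Of the 87 members, 28 had at least 1 annotated pseudogene of whose own 31-base stretches at least 20% occur in the member, and for 5 of them the pseudogenes carried more than 10% of the member's own counts. These were Atp5g2, Ndufb4 (2.19 times its own counts), Ndufs5 (0.98 times), Ndufa12 (0.62 times) and Cox7a2l (0.16 times). With pseudogene counts added, Cox7a2l rose by 0.22 ± 0.04 in KO and by 0.30 ± 0.04 in WT cells. Ndufb4, which passed the test in neither genotype alone, fell by 0.19 ± 0.05 in WT cells (adjusted p = 0.0042) and had a change of 0.11 in KO cells (adjusted p = 0.066).

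Promoters were examined because the members moved together and because nuclear respiratory factor 1 (NRF1) and other activators are known to bind respiratory genes. RefSeq promoter windows of 300 bases (250 before to 50 after the start, GRCm38.p6) were matched to 69 of the 86 symbols, with 74 windows. On either strand, the NRF1 motif (GCGC, any base, then TGCGC) was found in 24.3% of the members' windows and in 6.38% of 21263 windows in all. The CRE motif TGACGTCA was found in 6.76% against 2.23%, the ERR motif TCAAGGTCA in 2.70% against 0.334% and the YY1 motif (AA, any base, ATGG, then CGGC) in 5.41% against 1.38%. The ETS motif CCGGAAGTG was in 2.70% against 2.71%, and the E-box CACGTG in 9.46% against 7.84%. A match is a description of letters and not a bound site. The 21263 windows were not matched to those of the members for base composition or level, and the part of either in these percentages was not tested.

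**Figure D4:**
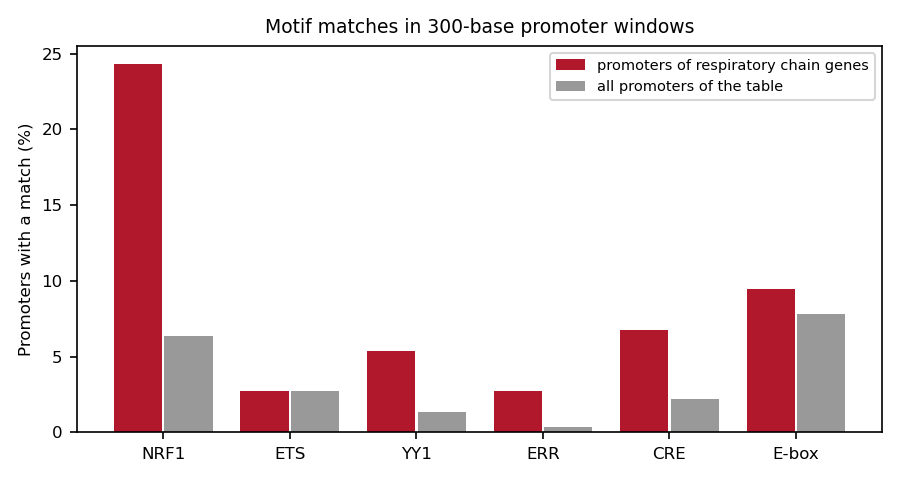
Percentage of 300-base promoter windows with a match to each of 6 motifs, for the 74 windows of respiratory chain genes (left bars) and all 21263 windows of the table (right bars); bars start at 0. The NRF1 motif stands at 24.3% against 6.38%, and the ETS motif does not stand apart, at 2.70% against 2.71%.

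The stretches shown come from the 6 genes with the deepest falls in KO cells among members with a match, each counted without pseudogenes. Atp5g2 stands here by its change of −0.95 counted alone, which was −0.26 with pseudogene counts added. Each stretch is given as 30 bases on the coding strand of the gene, with the motif in capitals. Atp5g3 and Sdhd hold both an NRF1 and an ERR motif. The ERR motif in both genes and the NRF1 motif of Sdhd read on the opposite strand. Further matches in these windows are not shown.
Cycs, CRE, chr6:50566720-50566749, minus strand: aggccagagggTGACGTCAcgcacgtccac
Atp5g3, NRF1, chr2:73911295-73911324, minus strand: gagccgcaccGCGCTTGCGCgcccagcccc
Atp5g3, ERR, chr2:73911359-73911388, minus strand: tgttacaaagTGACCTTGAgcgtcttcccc
Atp5g1, E-box, chr11:96075658-96075687, minus strand: agggactccgaaCACGTGggtgggggagct
Atp5g2, NRF1, chr15:102671070-102671099, minus strand: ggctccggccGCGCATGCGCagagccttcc
Atp5k, NRF1, chr5:108434430-108434459, minus strand: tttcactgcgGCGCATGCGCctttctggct
Sdhd, NRF1, chr9:50603909-50603938, minus strand: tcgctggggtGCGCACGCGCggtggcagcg
Sdhd, ERR, chr9:50603800-50603829, minus strand: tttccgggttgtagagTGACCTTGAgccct

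The 17 members with the NRF1 motif, Atp5g2 among them as counted alone, had a median log2 fold change of pausing of −0.53 in KO cells. The 51 without it had −0.28. In WT cells the medians were −0.45 with and −0.33 without it. The 17 genes included Ndufa6 and Cox6a1, which rose in KO cells, and Sdha, which fell by 0.18 in KO cells. The 5 genes with the CRE motif were Cycs, Ndufa10, Ndufa11, Ndufb2 and Uqcrfs1, with medians of −0.60 in KO and −0.51 in WT cells. These are descriptions over genes of a family and were not tested.

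The second question was how the members differed between the libraries labelled KO and WT. In normal culture, 28 were higher and 33 lower in KO than in WT cells, where 34.1% of all genes were higher and 34.1% lower (68.2% in either direction). Of the 8401 protein-coding genes in the level range of the ubiquitous members, 46.5% were higher and 29.7% lower, with a median of 0.08. In paused culture, 22 were higher and 35 lower, where 30.8% and 34.5% of all genes were higher and lower and 65.4% passed in either direction, and 38.6% and 35.5% of the genes in that level range were higher and lower. The members' medians were −0.05 in normal and −0.04 in paused culture, and −0.03 over all genes in both. The split in normal culture turned in TPM, to 37 higher and 11 lower, and with protein-coding genes alone it was 22 higher and 45 lower. In paused culture TPM gave 25 higher and 23 lower. The members' median in normal culture was 0.08 in TPM, against 0.07 over all genes. Higher in both cultures were 13 members, where 22.6% of all genes were higher in both, and lower in both were 23, where 23% were lower in both.

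Complex I held members with differences in both directions. Of the 7 core subunits of complex I, 5 were higher and 1 lower in KO than in WT cells in normal culture, while of the 28 accessory subunits 9 were higher and 12 lower, beside the 34.1% of all genes in each direction. One of the 5 was Ndufs8, whose difference of 0.27 was 0.52 with replicates 1 and 2 and 0.05 with replicates 3 and 4, where it did not pass the test (adjusted p = 0.33). Ndufb3, an accessory subunit of the membrane arm, had 40.9, 39.8, 40.1 and 40.9 CPM in KO paused against 31.3, 28.5, 28.1 and 28.4 CPM in WT paused libraries. In normal culture it had 50.3, 46.5, 47.7 and 47.2 CPM in KO against 34.4, 35.9, 33.1 and 33.0 CPM in WT libraries. The KO libraries lay above all WT libraries in both cultures, by 0.48 ± 0.04 in paused (adjusted p = 1.4e-08) and 0.49 ± 0.04 in normal culture (adjusted p = 7.5e-09). Ndufs1, a core subunit, and Ndufb4 showed differences of 0.52 and 0.67 in paused and 0.43 and 0.47 in normal culture.

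Single members of complexes III and IV were also higher in KO cells. Cox5b had 183, 183, 205 and 189 CPM in KO paused against 122, 112, 115 and 111 CPM in WT paused libraries, a difference of 0.73 ± 0.04 (adjusted p = 2e-11). In normal culture it had 182, 179, 191 and 183 CPM in KO against 130, 137, 132 and 133 CPM in WT libraries, a difference of 0.46 ± 0.04 (adjusted p = 7.1e-09). Uqcrq was higher in KO cells by 0.55 ± 0.05 in paused and 0.33 ± 0.05 in normal culture, while its neighbour in complex III, Uqcr11, was lower by 0.50 ± 0.06 and 0.26 ± 0.06. Among the lower members, Ndufa2 stood at −0.17 and Atp5l at −0.36 in paused culture, and both at −0.45 in normal culture.

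Complex II divided by subunit. In normal culture Sdha, Sdhb and Sdhc were higher in KO cells, by 0.14 ± 0.03, 0.34 ± 0.04 and 0.34 ± 0.04, and Sdhd was lower, with −0.15 ± 0.04 (adjusted p = 0.0022). In paused culture only Sdhb was higher, by 0.16 ± 0.04, and Sdhd was lower, with −0.28 ± 0.04. Sdhc in normal culture had 172, 167, 167 and 170 CPM in KO against 141, 137, 125 and 130 CPM in WT libraries.

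The largest genotype difference was that of Cox6a2 (chromosome 7, 128205435 to 128206387), the heart and muscle form of subunit 6a. It had 106, 311, 119 and 182 estimated counts in KO paused libraries against 0, 1, 5 and 5 in WT paused libraries. In normal culture it had 81, 94, 82 and 52 counts in KO against 5, 14, 2 and 3 in WT libraries. Every KO library lay above every WT library. The log2 difference was 5.86 ± 0.50 in paused (adjusted p = 1.6e-08) and 3.62 ± 0.46 in normal culture (adjusted p = 2.2e-06). The WT side of both rests on very few counts. Cox6a2 passed the count filter of the fit through its KO libraries, since in WT only the library with 14 counts reached the minimum. These p-values do not allow for that selection. Within KO cells Cox6a2 rose in paused culture by 1.07 ± 0.31 (adjusted p = 0.0059), and in WT cells the change was −1.17 ± 0.80 (adjusted p = 0.22). Even in KO paused libraries Cox6a2 made up 0.849% ± 0.378 of the TPM of Cox6a1 and Cox6a2 (SD, n = 4).

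Other rare isoforms went the other way. Cox8c had 0.0862, 0.0727, 0.104 and 0.0609 CPM in KO paused against 0.339, 0.348, 0.255 and 0.314 CPM in WT paused libraries, a difference of −1.94 ± 0.22 (adjusted p = 3.9e-07). In normal culture the difference was −1.44 ± 0.19 (adjusted p = 1.5e-06). Cox7b2, the other testis-enriched isoform, had 3 to 9 counts in KO paused against 16 to 24 in WT paused libraries. Its differences were −1.63 ± 0.36 in paused and −1.82 ± 0.34 in normal culture. In paused culture only its WT libraries reached the minimum of the count filter, a selection that the test does not allow for.

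**Figure D5:**
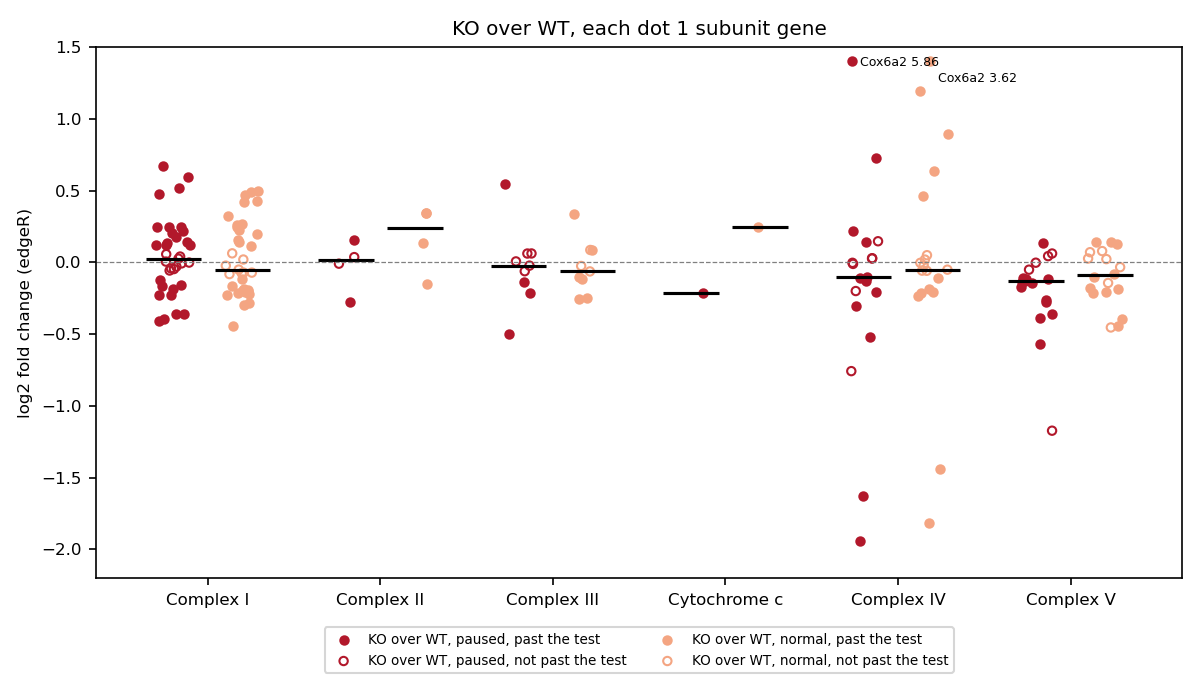
Log2 fold changes of KO over WT for the 86 members tested, by complex, with paused culture left of normal culture in each pair; each dot is a gene, filled dots passed the test and black lines are medians. Medians lie near zero except for complex II and cytochrome c in normal culture and cytochrome c in paused culture, and Cox6a2, at 5.86 in paused and 3.62 in normal culture, is drawn at the upper edge.

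The members encoded on the X chromosome are Ndufa1, Ndufb11 and Cox7b. In normal culture their differences between KO and WT were −0.23 ± 0.05, −0.07 ± 0.05 and −0.21 ± 0.03, where the median of 603 X-linked protein-coding genes was −0.22 and that of 16316 autosomal genes 0.02. In paused culture they were −0.40 ± 0.05, 0.18 ± 0.05 and 0.03 ± 0.03, with medians of −0.14 for X-linked and −0.01 for autosomal genes. Ndufa1, a small accessory subunit of complex I, had 19.9, 17.4, 20.5 and 18.3 CPM in KO paused against 24.6, 24.9, 25.3 and 25.3 CPM in WT paused libraries. Whether X dosage took part in these values was not tested.

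The third question was whether the response to pausing differed between genotypes. By the interaction test, the response was higher in KO than in WT for 18 members and lower for 22, where 17.4% of all genes were higher and 24.5% lower (41.9% in either direction). The median difference was −0.02, against −0.03 over all genes. The split turned with protein-coding genes alone, to 32 higher and 13 lower, and with replicates 3 and 4, to 26 higher and 9 lower. It widened to 7 higher and 28 lower in TPM and to 9 higher and 26 lower with replicates 1 and 2, so which direction held more members depended on these choices.

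Single members had large differences in response. The lowest among those that passed the test were Ndufa4l2 (−1.65 ± 0.62, adjusted p = 0.044), Cox7a1 (−1.16 ± 0.14, adjusted p = 5e-06) and Cox4i2 (−1.05 ± 0.30, adjusted p = 0.0098), all rare isoforms that were higher in KO than in WT cells in normal culture. Their differences between KO and WT in paused culture were −0.76 (adjusted p = 0.21), −0.52 (adjusted p = 0.00023) and 0.15 (adjusted p = 0.61). In normal culture the call of Ndufa4l2 was lost without KO normal replicate 1 (0.61) or 2 (0.82) or WT normal replicate 3 (0.74) or 4 (0.81). Next among the members that passed came Cycs, with −0.46 ± 0.06, and Atp5e, with −0.39 ± 0.06 (adjusted p = 6.8e-05). The highest were Cox6a2 (2.24 ± 0.86, adjusted p = 0.046), Atp5s (0.44 ± 0.14, adjusted p = 0.019) and Ndufa6 (0.42 ± 0.06, adjusted p = 1.1e-05). With replicates 1 and 2 alone the value of Atp5s was 0.30 and did not pass the test. The call of Ndufa4l2 was lost without any 1 of 11 libraries, with values of −1.73 to −1.37; it held without KO paused replicate 2, KO normal replicate 3, WT paused replicate 1 or WT normal replicate 1 or 2. The call of Cox6a2 was lost without any 1 of 10 libraries, with values of 1.495 to 2.32; it held without KO paused replicate 1 or 3, WT paused replicate 3 or 4 or WT normal replicate 3 or 4, and with replicates 3 and 4 alone the value was 0.28. The 3 members Atp5g3, Cox7a1 and Cycs were higher in KO than in WT cells in normal culture and lower in paused culture, and Ndufa6 and Ndufb10 did the reverse. In paused culture the call of Atp5g3 was lost without KO paused replicate 2, WT paused replicate 1 or WT normal replicate 2 or 3 (−0.10 to −0.08), and that of Ndufb10 without KO paused replicate 3 or WT paused replicate 2 or 4 (0.09 to 0.10).

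Because canonical microRNAs depend on Dgcr8, the 3′ UTRs of the members were searched for the site of the miR-290 family, the main microRNAs of mouse ESCs. Mature sequences from RefSeq (chromosome 7, GRCm38.p6) are shown with the shared seed, bases 2 to 8, in capitals.
mmu-miR-291a-3p: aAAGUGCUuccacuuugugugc
mmu-miR-294-3p: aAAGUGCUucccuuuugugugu
mmu-miR-295-3p: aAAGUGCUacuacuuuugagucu
The matching site AGCACTT was in the longest annotated 3′ UTR of 6 of 85 members (7.06%) and in 16.6% of 16667 protein-coding genes tested. It was in 4.13% of 6290 genes with 3′ UTRs of 77 to 846 bases, the central range of the members. Of the members with the site, only Sdhd (728 bases) lies in that range. The others run from 968 bases (Ndufs4) to 4252 bases (Atp5g1), so 7.06% and 4.13% cover unlike lengths and cannot be compared directly. The members' 3′ UTRs were short, with a median of 201 bases against 1134 for all genes. The 6 genes were Atp5g1, Cycs, Ndufb2, Ndufb8, Ndufs4 and Sdhd, and their KO over WT differences in normal culture ran from −0.15 for Sdhd to 0.25 for Cycs. Their median was 0.04, against −0.05 for the members without the site. In paused culture it was −0.17, against −0.02.

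Genes that build or supply the chain were described as lists, beside all genes tested, of which 32.8% were lower and 34.4% higher in KO paused cells and 27.5% lower and 33.3% higher in WT paused cells. Of 48 assembly factors, 35 were lower and 8 higher in KO paused cells, with a median of −0.36, and 33 were lower and 4 higher in WT paused cells, with a median of −0.30. The lowest in KO cells was Pet117 (−1.11 ± 0.17), a factor for complex IV, and the highest Lyrm7 (0.79 ± 0.14), which holds the iron-sulphur protein of complex III before its insertion. Lyrm7 was also the highest in WT cells (0.62 ± 0.14). Of 18 genes of pyruvate oxidation and the tricarboxylic acid cycle, 13 were lower and 4 higher in KO cells, with citrate synthase Cs at −0.95, and 15 were lower and 2 higher in WT cells, with isocitrate dehydrogenase Idh2 at 0.83. Of 14 regulators of mitochondrial biogenesis tested, 8 were lower and 2 higher in KO cells, with the coactivator Ppargc1b at −1.64 ± 0.10, and 6 were lower and 4 higher in WT cells, with the helicase Twnk at 0.45. Of 7 carriers and channels, 6 were lower and 0 higher in both genotypes.

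Of the 13 mitochondrially encoded subunits of the same complexes, 6 were lower and 3 higher in KO paused cells, with a median of −0.25, and 5 were lower and 0 higher in WT paused cells, with a median of −0.22. Among the 8401 protein-coding genes in the level range of the ubiquitous members, 46.7% were lower and 32.7% higher in KO and 38.6% lower and 38.04% higher in WT paused cells, next to 46.2% and 23.1% of the 13 genes in KO and 38.5% and 0% in WT cells. These transcripts carry short tails, and the libraries were made by poly(A) selection. Tfam, which packages and transcribes mitochondrial DNA, had 43.1, 42.1, 43.0 and 42.5 CPM in KO paused and 68.2, 67.3, 68.1 and 69.4 CPM in KO normal libraries, a log2 fold change of −0.68 ± 0.03 (adjusted p = 2.1e-12). In WT cells it fell by 0.33 ± 0.03 (adjusted p = 3.5e-08), and it was lower in KO than in WT cells in paused culture (−0.94 ± 0.03) and in normal culture (−0.59 ± 0.03).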

How the data were processed

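Poly(A) RNA of 16 libraries was measured, 4 in each of 4 groups taken from the labels. Per the submitters' processing notes, the authors used kallisto (version not given in the sources used here) and GRCm38. The deposited files give estimated counts and TPM (length-normalised levels) per transcript. Of 118489 transcripts, 116728 were matched to GENCODE M21 and summed to 35968 genes; the 1761 unmatched ones carried 0.657% to 0.711% of the counts and were left out.

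Expected counts (the deposited estimated counts) were rounded and fitted in 1 model of 4 groups with edgeR 4.0.16 in R 4.3.3 (robust quasi-likelihood F test, TMM scaling, filterByExpr with a minimum count of 10, Benjamini-Hochberg over 18944 genes, threshold 0.05); errors of log2 fold changes are SE. TPM were tested with limma 3.58.1 on log2(TPM + 0.1), a scale that understates changes of low genes. Isoform shares of TPM were compared by exact permutation tests (scipy 1.17.1). Steps were tested on simulated data. Intervals and tests cover the spread between these libraries.

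Named were the highest and lowest member of each complex in each comparison, members called against the majority of their complex, the 3 largest interactions in each direction, isoforms, X-linked members, complex II and cytochrome c, and the extremes of each list. A few further members, such as Cox4i1, Cox6b1 and Ndufb3, were chosen after their values were seen. A member that the rule named is not reported here. The members and lists were chosen with earlier results of these data known. Alternatives were DESeq2 1.42.0, its size factors, no filter, length-scaled counts, TPM, protein-coding genes only, a replicate block, a term or subset for replicates 1 and 2 against 3 and 4, fits of 2 groups, added pseudogene counts and leaving out each library.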

Additional observations from a re-analysis of the deposited data

Results flagged for a closer look

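Of 152 sets of 4 libraries, 4 held a library far from the other 3 by Dixon's criterion, which chance meets in about 1 of 20 sets. These were Atp5g3 in WT paused (141 CPM, the lowest), Atp5e in KO normal (74.9 CPM, the lowest), Sdhb in KO paused (91.7 CPM, the highest) and Ndufb4 in KO normal libraries (21.0 CPM, the highest).

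The response to pausing differed between KO and WT cells for 19 members described in the text, by the edgeR interaction test. On the log2 scale the response was lower in KO for Ndufa4l2 (−1.65), Cox7a1 (−1.16), Cox4i2 (−1.05), Cycs (−0.46), Atp5e (−0.39), Sdhc (−0.31), Atp5g1 (−0.25), Uqcr11 (−0.24), Atp5g3 (−0.24), Sdhb (−0.18) and Sdha (−0.15). It was higher in KO for Uqcrq (0.21), Cox7b (0.23), Ndufb11 (0.25), Cox5b (0.26), Ndufb10 (0.33), Ndufa6 (0.42), Atp5s (0.44) and Cox6a2 (2.24). The calls of Ndufa4l2, Cox6a2, Sdha, Sdhb and Uqcr11 were lost without 1 library, Uqcr11 without KO paused replicate 2 or 4, WT paused replicate 1 or WT normal replicate 3 (−0.21 to −0.18). Of the others, Atp5g1 lost its call with replicates 3 and 4 alone (−0.17), and Atp5s (0.30) and Uqcrq (0.16) with replicates 1 and 2 alone.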

How the results depend on the processing

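With TPM in place of scaled CPM, 18 members were higher in KO pausing, 17 higher and 42 lower in WT pausing, 7 higher in the difference between responses, 11 lower in KO than WT in normal culture and 23 lower in paused culture. In TPM the sign turned for 7 members called in KO pausing, among them Sdha (0.034), Cox7b (0.13) and Cox4i1 (0.11). In WT pausing it turned for 13, among them Cox5b (0.13), Ndufa6 (0.15) and Cox4i1 (0.084). The share of Atp5g1 turned to −5.86 points in KO and −4.58 points in WT cells with pseudogenes added. The difference between responses had 9 higher members with replicates 1 and 2, 9 lower with replicates 3 and 4, and 32 higher and 13 lower with protein-coding genes only; KO over WT in paused culture had 14 higher with replicates 1 and 2. TPM and added gene models were chosen after seeing the data, and the cause of these shifts was not tested. Leaving out 1 library gave 14 to 26 higher and 14 to 26 lower members in the difference between responses, with 14 lower without WT normal replicate 2. The other ranges were 7 to 8 higher and 65 to 67 lower (KO pausing), 5 to 6 and 69 to 72 (WT pausing), 26 to 29 and 30 to 34 (KO over WT, normal) and 20 to 25 and 32 to 36 (KO over WT, paused). It ended the call of a single named member in 59 results and made one in 42. All 30 share calls lost their threshold without any 1 library, in 480 results. These included tests that did not hold that library, whose p was adjusted with those of the others over 44 tests. A group with 1 library fewer cannot reach an exact p under 0.05, so this outcome was fixed in advance and says nothing about any share. Same-numbered libraries deviated together weakly at most (24 pairs, r −0.05 to 0.10, none over 0.1). A library's own number was the best match in 21 of 48 checks, each a choice among 4 numbers, so a lack of pairing is not shown. With the replicate block, the counts higher and lower were 7 and 67 (KO pausing), 5 and 70 (WT pausing), 18 and 25 (difference), 29 and 33 (KO over WT, normal) and 22 and 35 (paused). Isoforms under 1 CPM are limited by depth.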
